A study of Mus musculus with 8 samples.

Results

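The translation initiation and elongation factors of the newborn mouse lung were followed here on 66 probe sets of an Affymetrix mouse expression array, out of 12422 that were no controls. They were chosen by name: each carried 1 gene symbol that began with Eif or Eef followed by a number, which took in the inhibitors of the Eif4ebp family, the eIF2 kinases and a methyltransferase of eEF1A. The 66 probe sets stood for 49 genes, out of 8251 genes that had such a single symbol. The lungs came from mice that received retinoic acid or oil on day 3 of life and dexamethasone or saline on day 4, and whole-lung RNA was hybridised to 8 arrays, 2 in each of 4 groups. The RA-Dex group had retinoic acid and then dexamethasone, the Dex group oil and then dexamethasone, and the RA group retinoic acid and then saline. The Dil group, which the labels do not define, was read as the oil and saline arm because it was the only arm left. The labels do not say whether the arrays a and b of a group came from separate animals, and each p-value therefore rests on the spread between arrays alone, which may be technical. Strain and doses, and when the lungs were taken, do not stand in the labels used here.

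To begin a protein, the small ribosomal subunit takes up the initiator tRNA from the eIF2 complex, is bound by eIF3, is brought to the mRNA cap by eIF4F and scans to the start codon. The eEF1 complex then delivers each aminoacyl-tRNA, and eEF2 moves the ribosome along. The pathway is throttled at several known points: the 4E-BP proteins sequester the cap-binding protein eIF4E unless mTOR signalling phosphorylates them, kinases of eIF2 stop the recycling of that complex by eIF2B, and the kinase eEF2K slows elongation. Dexamethasone, a glucocorticoid, is known to block the septation of newborn rodent alveoli, and retinoic acid is known to promote it.

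The mRNAs of many ribosomal proteins and translation factors are known to begin with a C followed by a run of pyrimidines, the 5′ terminal oligopyrimidine tract, through which mTOR signalling controls their translation rather than their abundance. Promoter sequences from RefSeq (build GRCm38.p6) matched 41 of the 49 genes, with 56 annotated starts. A C followed by at least 4 pyrimidines stood exactly at the annotated start in 2 of the 56, or 3.57%, against 2.51% of 32851 promoters of all genes. The 30 bases around the start, 10 before it and 20 from it onwards, are shown for those 2 genes, for the main elongation factors Eef1a1 and Eef2, and for Eif4ebp2, which had the largest difference between groups; capitals mark the tract.
Eif2s3x, chrX:94212632-94212661, minus strand: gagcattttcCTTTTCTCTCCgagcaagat
Eif3f, chr7:108934405-108934434, plus strand: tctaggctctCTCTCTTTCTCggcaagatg
Eef1a1, chr9:78481705-78481734, minus strand: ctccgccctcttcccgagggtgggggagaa
Eef2, chr10:81176621-81176650, plus strand: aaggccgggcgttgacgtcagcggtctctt
Eif4ebp2, chr10:61452650-61452679, minus strand: cgcagcgggacgaccgggcgagagcaggcg
The tract was 11 bases long in both Eif2s3x and Eif3f. In the other 3 windows these letters did not stand at the annotated start, which says nothing about starts the annotation does not hold. Runs at other positions were not counted, such as those across the Eef1a1 start and at the end of the Eef2 window.

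The deposited values were intensity signals on a linear scale, already scaled to a common level on each array. Median signals of the arrays lay between 316 and 342. Signals under 85.3, the pooled 25th percentile, were set to that floor before taking log2, and probe sets whose mean log2 value over the 8 arrays was above that of a signal of 200.8 were tested, 7309 in all. Of the 66 factor probe sets 45 passed, for 39 genes, and 21 did not. Lung identity was checked on 9 epithelial markers: the surfactant gene Sftpc had signals of 61590 to 84340 and the club cell gene Scgb1a1 of 40350 to 52030 over the 8 arrays, and Sftpd alone fell below the filter. As this was whole-lung RNA, fewer cells of a type and less RNA per cell cannot be told apart.

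No tested factor probe set passed the test in any of 7 comparisons. When the 4 arrays with dexamethasone were set against the 4 without, averaged over the day 3 treatment, 0 of the 45 passed (limma moderated test, Benjamini-Hochberg adjusted p under 0.05 over all 7309), while 7.83% of all tested probe sets did. At an unadjusted p under 0.05 there were 4 factor probe sets, or 8.89%, against 21.3% of all. The median log2 fold change was 0.00 over the factors and -0.03 over all tested probe sets, and the median size regardless of sign was 0.12 against 0.19. A size above 0.5 was reached by 1 factor probe set (2.22%) and by 13.8% of all. In 0 of the 45 did the 4 dexamethasone arrays lie wholly above or below the 4 others, which 14.6% of all probe sets did. The 95% interval of the dexamethasone effect stayed inside a 2-fold change either way in 43 of the 45, the exceptions being Eif2s3y and 1 probe set of Eif4ebp2, so that larger changes were outside the interval for nearly all of them, whereas smaller ones were not: the median distance from the estimate to either end of the interval was 0.35 on the log2 scale.

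**Figure D1:**
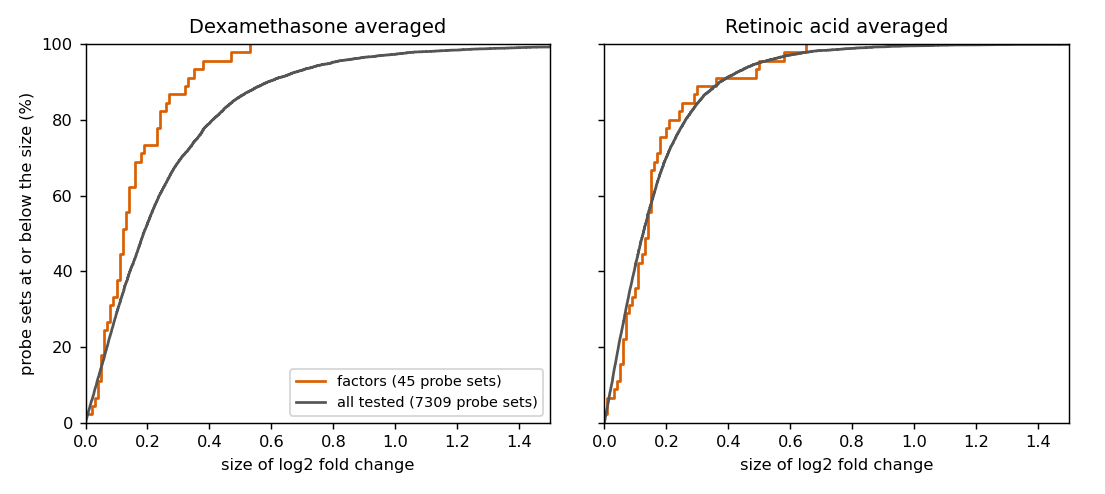
Share of probe sets (vertical axis, percent) whose log2 fold change, regardless of sign, was at or below the value on the horizontal axis, for 45 factor probe sets and all 7309 tested, with dexamethasone averaged on the left and retinoic acid averaged on the right. With dexamethasone the factors reach 100% at 0.53, and with retinoic acid the curves lie close together (median sizes 0.14 and 0.13).

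With retinoic acid, averaged over the day 4 treatment, 0 of the 45 passed in limma, beside 0.150% of all probe sets, and 2 (4.44%) had an unadjusted p under 0.05, beside 6.29%. The median was 0.06 over the factors and 0.00 over all, the interval stayed inside a 2-fold change in 42, and 2 of the 45 had groups that did not overlap, Eif3e and Eif3l (4.44%, against 2.31% of all). The simple comparisons gave the same count of 0 calls in limma, with wider intervals. These stayed inside a 2-fold change in 35 of the 45 in Dex against Dil and 33 in RA-Dex against RA. In RA against Dil they did so in 34 and in RA-Dex against Dex in 39. In Dex against Dil 3.23% of all probe sets passed, and 3 factor probe sets (6.67%) had an unadjusted p under 0.05, beside 14.9% of all. In RA-Dex against RA 3.50% of all passed, and 3 factors (6.67%) had an unadjusted p under 0.05, beside 15.8%. In RA against Dil 0.0274% passed, and 7 factors (15.6%) had an unadjusted p under 0.05, beside 7.99%. In RA-Dex against Dex 0.0958% passed, and 0 factors had an unadjusted p under 0.05, beside 4.13%. Groups that did not overlap were found in 19 of the 45 factors in Dex against Dil (45.6% of all probe sets), 13 in RA-Dex against RA (44.9%), 16 in RA against Dil (33.6%) and 15 in RA-Dex against Dex (34.8%). For the interaction, the Dex against Dil difference was subtracted from the RA-Dex against RA difference. Here 0.0137% of all passed in limma and 0 factors did, and 4 factors had an unadjusted p under 0.05, beside 5.60% of all. The interval of the interaction stayed inside a 2-fold change in only 15 of the 45.

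**Figure D2:**
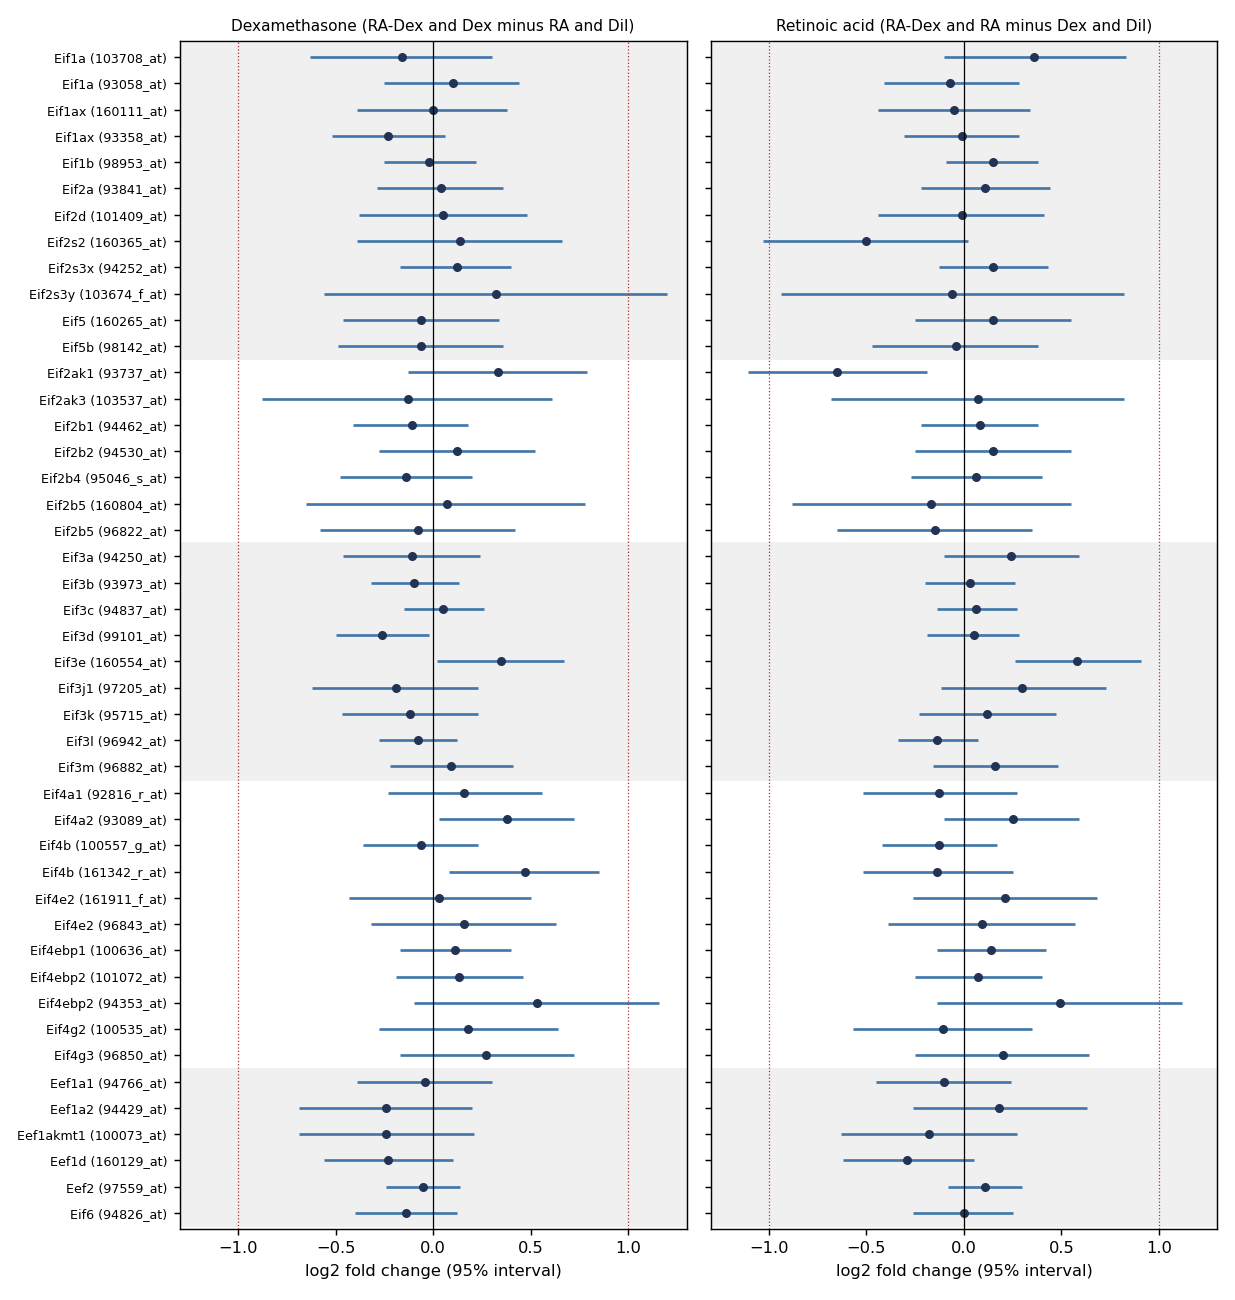
Log2 fold change with its 95% interval for each of the 45 tested factor probe sets, grouped by role in shaded and plain bands, for dexamethasone averaged (left) and retinoic acid averaged (right), with 4 arrays against 4; dotted lines mark a 2-fold change. Most intervals cross 0, and none of the estimates lies beyond a 2-fold change.

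The width of these intervals came from the spread within groups, moderated towards that of probe sets of similar signal. The median pooled standard deviation between the arrays of a group was 0.263 on the log2 scale for the 45 factors, 0.229 for all tested probe sets and 0.202 for 3041 probe sets between the lower and upper quartile of the factors' signals. The RA arrays differed most: array b was higher than array a in 32 of 45 factor probe sets, with a median log2 difference of 0.16 against -0.01 over all, and 15 factors (33.3%) differed by more than 0.5, against 23.5% of all. In Dil 22.2% of the factors differed that much, in RA-Dex 17.8% and in Dex 13.3%. Over all tested probe sets these shares were 21.9%, 15.7% and 15.1%. Across all 8 arrays the highest signal of a factor was between 1.21 and 6.4 times its lowest, with a median of 1.74, and it was under 2 in 35 of the 45.

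**Figure D3:**
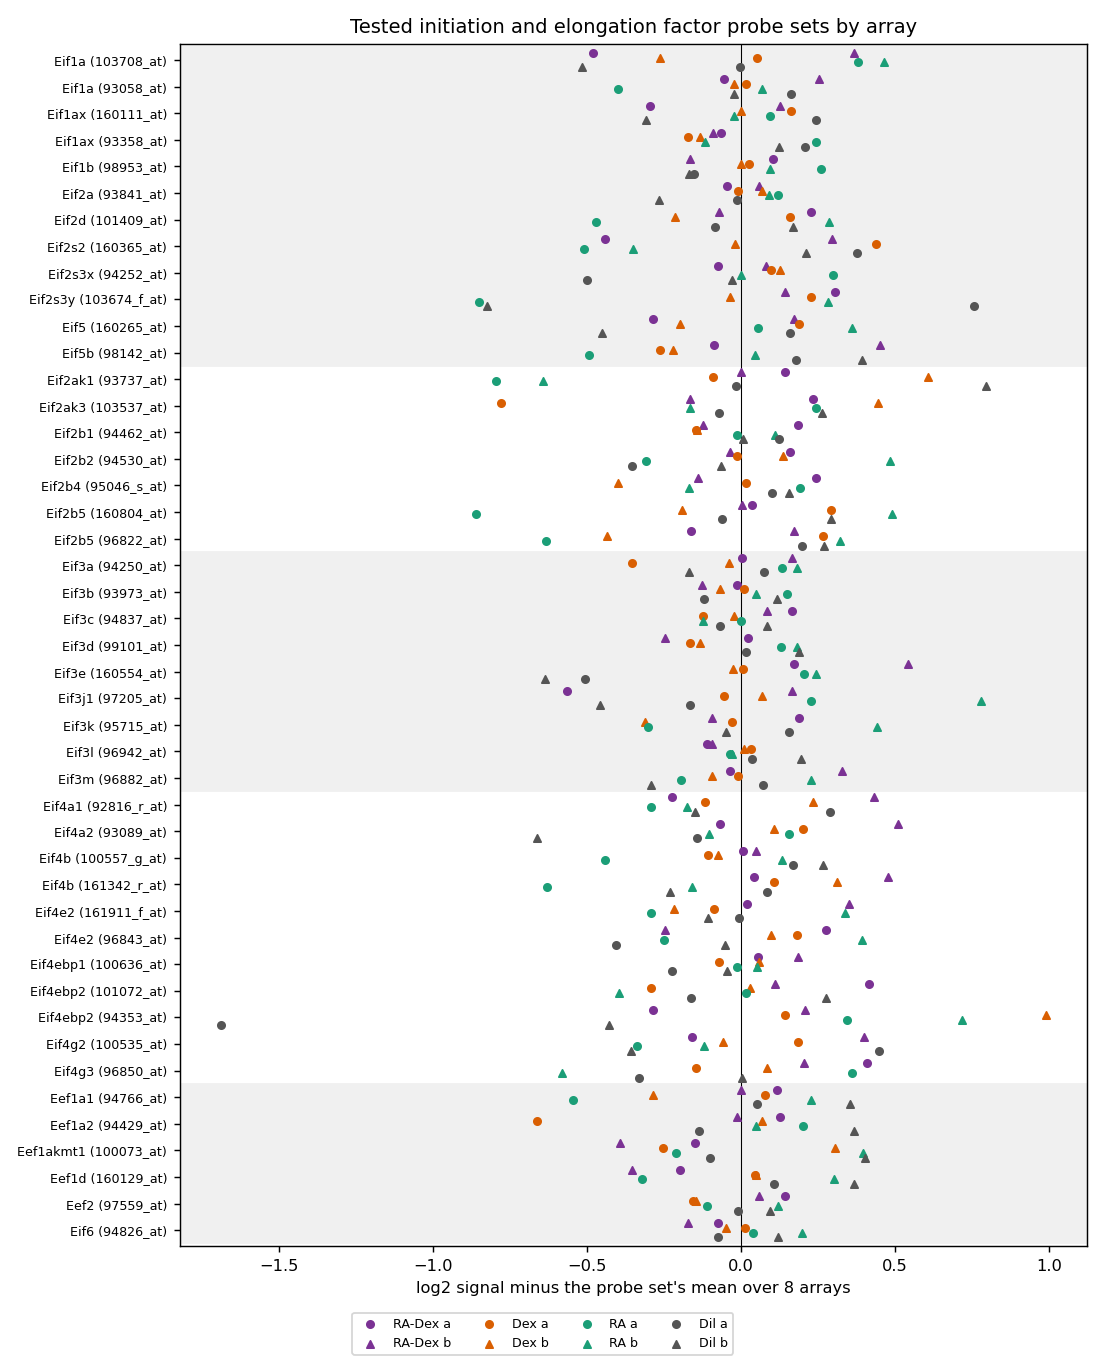
Log2 signal of each array minus the mean of that probe set over the 8 arrays, for the 45 tested factor probe sets, ordered by role in shaded and plain bands; colours give the group, circles array a and triangles array b. Groups are interleaved in most rows, and 1 probe set of Eif4ebp2 spreads widest, with both Dil arrays lowest.

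The factors that start codon recognition depends on were represented by 15 probe sets for 10 genes, of which 12 were tested. These include the eIF2 complex, which carries the initiator tRNA (Eif2s2, Eif2s3x, Eif2s3y), and the scanning factors Eif1a, Eif1ax and Eif1b. They also include Eif5, which triggers GTP hydrolysis by eIF2, and Eif5b, which joins the large subunit. The last are Eif2a and Eif2d, which can bring tRNA to the ribosome without eIF2. Of the 12, 6 had positive and 6 negative estimates with dexamethasone, between -0.23 and 0.32. Eif2s3x, the gamma subunit encoded on the X chromosome and 1 of the genes with a pyrimidine start, had signals of 3910 and 4354 in RA-Dex, 4407 and 4495 in Dex, 5059 and 4113 in RA, and 2909 and 4036 in Dil. The 4 dexamethasone arrays lay within the range of the other 4, and the log2 fold change was 0.12 ± 0.128 with dexamethasone (SE, n = 4 against 4, limma adjusted p = 0.681) and 0.15 ± 0.128 with retinoic acid (adjusted p = 0.94).

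Eif2s3y, its Y-linked counterpart, had 267 and 239 in RA-Dex, 253 and 211 in Dex, 120 and 263 in RA, and 365 and 122 in Dil. The arrays of RA and of Dil each included 1 low and 1 high value, so the spread inside those groups exceeded any difference between groups. Xist, the transcript of the inactive X chromosome, had signals between 324.3 and 950.2 on the 8 arrays. The Y-linked genes Kdm5d and Uty were below the filter, with signals from 18.91 to 128.3 and from 18.33 to 131.7. The labels used here do not give the sex of the pups, and the part of sex in these values was not tested. Eif2s2, the beta subunit, had 242 and 403 in RA-Dex, 445 and 324 in Dex, 231 and 258 in RA, and 427 and 380 in Dil. Both RA arrays lay below both Dil arrays, while RA-Dex and Dex overlapped, and the retinoic acid estimate was -0.50 ± 0.237 (95% interval -1.03 to 0.02, adjusted p = 0.788). Its second probe set was below the filter.

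The scanning factor Eif1a disagreed between its probe sets. One had a retinoic acid estimate of 0.36 ± 0.211 (adjusted p = 0.844) and the other -0.07 ± 0.155 (adjusted p = 0.978). Of the 2 probe sets of Eif1ax, the one with the smaller p had 954 and 937 in RA-Dex, 886 and 909 in Dex, 1180 and 921 in RA, and 1153 and 1088 in Dil. RA array b lay among the dexamethasone arrays, and the dexamethasone estimate was -0.23 ± 0.132 (adjusted p = 0.366). Eif5b had 489 and 710 in RA-Dex, 433 and 446 in Dex, 369 and 537 in RA, and 588 and 682 in Dil. Both Dex arrays lay below both Dil arrays, whereas RA-Dex overlapped RA, and the interaction was 0.93 ± 0.384 (limma adjusted p = 0.859). The second Eif5b probe set, with signals from 44.7 to 188, was below the filter. Its interaction estimate had the opposite sign, -0.45 ± 0.484. Eif5 ranged from 905 to 1589 with overlapping groups, and its estimates were -0.06 ± 0.18 with dexamethasone and 0.15 ± 0.18 with retinoic acid.

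The recycling factor eIF2B and the kinases that block it had 9 probe sets for 8 genes, of which 7 were tested. The eIF2B subunits Eif2b1, Eif2b2, Eif2b4 and Eif2b5 had dexamethasone estimates between -0.14 and 0.12. Eif2ak1, the haem-regulated kinase known from erythroid cells, had 986 and 893 in RA-Dex, 840 and 1362 in Dex, 515 and 573 in RA, and 884 and 1552 in Dil. The RA arrays were the lowest of the 8 and did not overlap Dil or RA-Dex. In RA against Dil the log2 fold change was -1.11 ± 0.293 (95% interval -1.76 to -0.46, n = 2 against 2, limma adjusted p = 0.318), in RA-Dex against RA 0.79 ± 0.293 (adjusted p = 0.206), and with retinoic acid averaged -0.65 ± 0.207 (adjusted p = 0.497). These comparisons share the RA arrays. Of the erythroid markers 4 were measured and 3 passed the filter. Their summed signal was 63610 and 62620 in RA, against 62840 and 78990 in Dil, nearly all of it from the haemoglobin gene Hba-a1. The red cell anion exchanger Slc4a1 had 705.7 and 405.8 in RA, against 1118 and 1068 in Dil and 925.1 and 938.1 in RA-Dex. Alas2 had 3092 and 4317 in RA, against 4754 and 6576 in Dil, but RA-Dex, with 4395 and 4086, overlapped RA. Hbb-bh1, below the filter, had 159 and 121.2 in RA and 103.1 and 132.6 in Dil. The part of red cell precursors in the Eif2ak1 values was not tested.

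Eif2ak3, the kinase of endoplasmic reticulum stress, had signals between 123 and 287 and estimates of -0.13 ± 0.339 with dexamethasone and 0.07 ± 0.339 with retinoic acid. The double-stranded RNA kinase Eif2ak2 and the amino acid starvation kinase Eif2ak4 fell below the filter. Eif2ak2 lay between 21.9 and 214 and Eif2ak4 between 93 and 306.

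The scaffold eIF3 had 13 probe sets for 10 genes, of which 9 were tested. With dexamethasone 3 estimates were positive and 6 negative, between -0.26 and 0.35, beside 3281 and 4028 of all 7309. With retinoic acid 8 were positive and 1 negative, between -0.14 and 0.58, beside 3655 and 3654 of all. None of the eIF3 probe sets passed the test in limma. Eif3e had 755 and 977 in RA-Dex, 674 and 658 in Dex, 772 and 794 in RA, and 472 and 431 in Dil. The 4 retinoic acid arrays lay above the 4 others, and both Dil arrays lay below all 6 of the rest. The retinoic acid estimate was 0.58 ± 0.147 (95% interval 0.26 to 0.91, adjusted p = 0.317). In RA against Dil it was 0.80 ± 0.208 (adjusted p = 0.316), and in Dex against Dil 0.56 ± 0.208 (adjusted p = 0.217), a pair of comparisons that share the Dil arrays. The second Eif3e probe set, with signals from 32.3 to 256, was below the filter and gives no check.

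Eif3l had 5489 and 5553 in RA-Dex, 6059 and 5974 in Dex, 5787 and 5806 in RA, and 6075 and 6780 in Dil. Its 4 retinoic acid arrays all lay below the 4 others, by little: the estimate was -0.14 ± 0.091 (adjusted p = 0.908). Eif3d, a subunit that can itself contact the cap, had 3452 and 2866 in RA-Dex, 3031 and 3100 in Dex, 3718 and 3854 in RA, and 3438 and 3869 in Dil. RA-Dex array a lay just above the lower Dil array, and the other 3 dexamethasone arrays lay below all 4 arrays without it (-0.26 ± 0.107, 95% interval -0.50 to -0.02, adjusted p = 0.189). Eif3j1, a loosely bound subunit, had 619 and 1028 in RA-Dex, 881 and 960 in Dex, 1073 and 1573 in RA, and 817 and 667 in Dil. The RA arrays were the highest of the 8. Its log2 fold change was 0.81 ± 0.272 in RA against Dil (adjusted p = 0.457) and -0.70 ± 0.272 in RA-Dex against RA (adjusted p = 0.229). Eif3f, the other gene with a pyrimidine start, was below the filter, with signals from 88.5 to 384.

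Cap recognition and its inhibitors had 18 probe sets for 11 genes, of which 11 were tested. With dexamethasone 10 of these 11 estimates, which stand for 8 genes, were positive, beside 3281 of all 7309. The 11 lay between -0.06 and 0.53, and their median was 0.16. None passed the test in limma, and 2 had an unadjusted p under 0.05. The cap-binding protein Eif4e itself could not be followed, since its 2 probe sets were below the filter, with signals from 13.2 to 208. The same held for Eif4h, a helper of the helicase, and for the eIF4E transporter Eif4enif1. Eif4g1 and Eif2s1 had no probe set with that single symbol.

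Eif4ebp2 encodes 4E-BP2, an inhibitor of eIF4E. The probe set of it with the widest spread had 537 and 755 in RA-Dex, 722 and 1300 in Dex, 830 and 1076 in RA, and 203 and 486 in Dil. Both Dil arrays lay below all 6 others, and the Dil arrays differed from each other more than 2-fold. The log2 fold change in Dex against Dil was 1.62 ± 0.403, or 3.08-fold (95% interval 0.73 to 2.51, n = 2 against 2, limma adjusted p = 0.0586). In RA against Dil it was 1.59 ± 0.403 (adjusted p = 0.302), and both values rest on the same Dil arrays. In RA-Dex against RA it was -0.57, and the interaction was -2.19 ± 0.57 (adjusted p = 0.763). The Dex against Dil difference passed the test under 4 of 16 alternatives, 1 of them without Dil array b (2.25, adjusted p = 0.0142). That fit leaves Dil with array a alone, the lowest of the 8, and assumes that it varies like the other groups. Over the 16 alternatives the difference lay between 0.994 and 2.253.

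The other tested Eif4ebp2 probe set did not share this pattern. It had 5704 and 4617 in RA-Dex, 3493 and 4359 in Dex, 4316 and 3250 in RA, and 3818 and 5168 in Dil. Dex overlapped Dil, with a log2 fold change of -0.19 in that comparison, and the interaction was 0.64. The third probe set was at the floor on all 8 arrays. Dil also stood apart in the summed skeletal muscle markers: over 16 measured genes, 6 of them above the filter, the summed signal was 4884 and 5032 in RA-Dex, 4730 and 3705 in Dex, 5721 and 4133 in RA, and 7495 and 8091 in Dil. The list was not uniform: Acta1 (skeletal actin) had 2198 and 1314 in Dil and at most 642.7 elsewhere, whereas Pvalb (parvalbumin), with 1393 and 2855 in Dil, overlapped the other groups. Over 11 measured squamous epithelium genes, 5 above the filter, the summed signals of Dil, 31750 and 37400, overlapped the 23370 to 33530 of the others. Most of each of these sums came from Sprr1b. Within that list the keratin gene Krt4 had 4680 and 2553 in Dil and at most 1968 elsewhere. Below the filter, Krt13 had 1092 and 349.9 in Dil and at most 292 elsewhere. Sprr3, also below it, had 594.7 and 406.6 in Dil and at most 198 elsewhere. In contrast, Krt1, Krt10, Lor and Sprr1b overlapped. The part of muscle and of squamous epithelium in the comparisons with Dil was not tested.

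**Figure D4:**
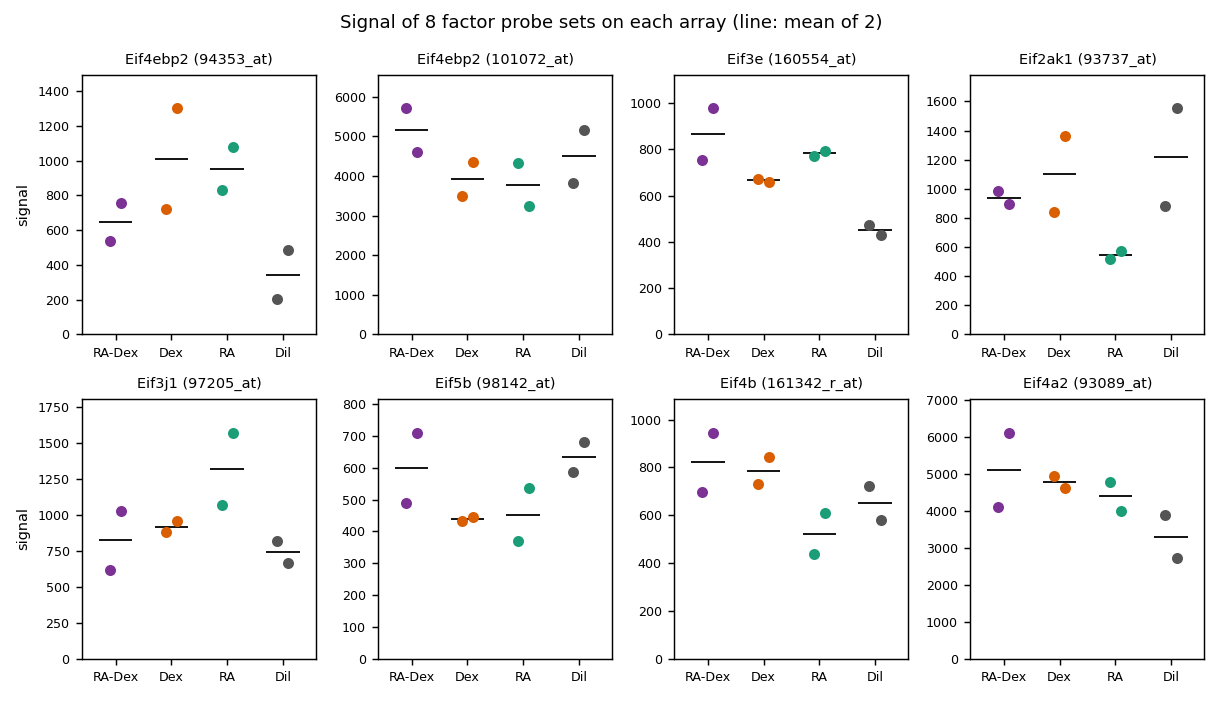
Signal (linear axis from 0, its range set for each panel) of 8 factor probe sets, 1 point per array, with groups from left to right RA-Dex, Dex, RA and Dil and a line at the mean of the 2 arrays. In the first Eif4ebp2 panel the Dil arrays, 203 and 486, lie below the other 6, and in the second those of Dil, 3818 and 5168, lie among them.

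Eif4ebp1, the best known of these inhibitors, hardly varied: it had 946 and 1035 in RA-Dex, 867 and 948 in Dex, 903 and 944 in RA, and 779 and 883 in Dil. The groups overlapped with dexamethasone, and the estimate was 0.11 ± 0.129 (95% interval -0.17 to 0.40, adjusted p = 0.689). Of the 2 tested probe sets of Eif4b, which stimulates the cap helicase, one had 699 and 945 in RA-Dex, 731 and 843 in Dex, 439 and 608 in RA, and 721 and 579 in Dil. Dil array a reached into the dexamethasone arrays, and the estimate was 0.47 ± 0.175 (95% interval 0.08 to 0.85, adjusted p = 0.147), the smallest p of the factors with dexamethasone. The other gave -0.06 ± 0.134 (adjusted p = 0.848).

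The helicase gene Eif4a2 had 4103 and 6113 in RA-Dex, 4940 and 4626 in Dex, 4791 and 3998 in RA, and 3896 and 2715 in Dil. RA array a overlapped the dexamethasone arrays, and the estimate was 0.38 ± 0.156 (adjusted p = 0.189). Its paralogue Eif4a1 gave 0.16 ± 0.179 (adjusted p = 0.676). Eif4g2, a relative of the eIF4G scaffold that does not bind eIF4E, gave 0.18 ± 0.208 (adjusted p = 0.688).

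Elongation, with the late factors eIF5A and eIF6, had 11 probe sets for 10 genes, of which 6 were tested. Eef1b2 and Eef1g of the eEF1 complex were below the filter. The 6 tested were Eef1a1, Eef1a2, Eef1d, Eef2, the eEF1A methyltransferase gene Eef1akmt1, and Eif6. All 6 dexamethasone estimates were below 0, between -0.24 and -0.04, beside 4028 negative ones among all 7309. However, none of the 6 passed the test in limma and none had an unadjusted p under 0.05. Eef1a1, which delivers aminoacyl-tRNA, had 46053 and 42511 in RA-Dex, 44821 and 34853 in Dex, 29072 and 49748 in RA, and 44036 and 54317 in Dil. The RA arrays held both the lowest and the second highest value of the 8, and the estimates were -0.04 ± 0.156 with dexamethasone and -0.10 ± 0.156 with retinoic acid.

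Eef2, the translocase, was among the most even of the factors. It had 18036 and 16998 in RA-Dex, 14659 and 14752 in Dex, 15133 and 17753 in RA, and 16197 and 17437 in Dil. The Dex arrays were the lowest of the 8 and RA-Dex array a the highest. The averaged dexamethasone estimate was -0.05 ± 0.087 (95% interval -0.24 to 0.14, adjusted p = 0.817). Eef1d, an exchange factor of eEF1A, had 1484 and 1332 in RA-Dex, 1759 and 1764 in Dex, 1365 and 2100 in RA, and 1836 and 2199 in Dil. RA array b was above both Dex arrays, and the estimates were -0.23 ± 0.151 with dexamethasone and -0.29 ± 0.151 with retinoic acid (adjusted p = 0.44 and 0.806).

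Eef1a2, the form of eEF1A known from muscle and neurons, had 345 to 705 over the 8 arrays and a dexamethasone estimate of -0.24 ± 0.201 (adjusted p = 0.56). Eif6, which keeps the ribosomal subunits apart, gave -0.14 ± 0.117 (adjusted p = 0.561). The elongation kinase Eef2k was below the filter, with 186 and 94.8 in RA-Dex, 225 and 145 in Dex, 37.5 and 31.1 in RA, and 77.5 and 131 in Dil. RA-Dex array b lay under Dil array b, and both RA arrays were under the floor. Eif5a, which helps the ribosome through difficult peptide bonds, was also below the filter, with signals from 91.4 to 298.

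The genes around these factors did include some that changed. One list held translation control genes and genes of the mTOR pathway, and was chosen with earlier results of these data known. Of its 17 measured genes 16 were tested. With dexamethasone 3 rose and 1 fell, beside 7.83% of all tested probe sets called in either direction. The median of the list was 0.01 against -0.03 over all tested probe sets. Ddit4, an inhibitor of mTOR complex signalling, had 3604 and 3478 in RA-Dex, 3513 and 3522 in Dex, 765.1 and 843.7 in RA, and 782.2 and 774 in Dil. All 4 dexamethasone arrays stood far above the others, by 4.46-fold (log2 2.16 ± 0.11, limma adjusted p = 1.49e-06), with 2.18 in Dex against Dil and 2.14 in RA-Dex against RA.

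Sesn1, a sestrin that restrains the same pathway, had 3881 and 3575 in RA-Dex, 3601 and 3136 in Dex, 1167 and 1144 in RA, and 1290 and 1377 in Dil. The groups did not overlap and the difference was 2.85-fold (1.51 ± 0.11, adjusted p = 1.55e-05). Pdcd4, which inhibits the helicase eIF4A, had 917.6 and 1261 in RA-Dex, 859.5 and 957.5 in Dex, 730.4 and 528.4 in RA, and 477.1 and 577.8 in Dil, and rose 1.73-fold (0.79 ± 0.17, adjusted p = 0.0163). It lost the call under 3 of 16 alternatives, among them without Dex array b (adjusted p = 0.0698) and without RA-Dex array b (adjusted p = 0.0917). The kinase Akt2 was lower with dexamethasone (-0.50 ± 0.126, adjusted p = 0.036), a call lost under 10 of 16 alternatives.

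**Figure D5:**
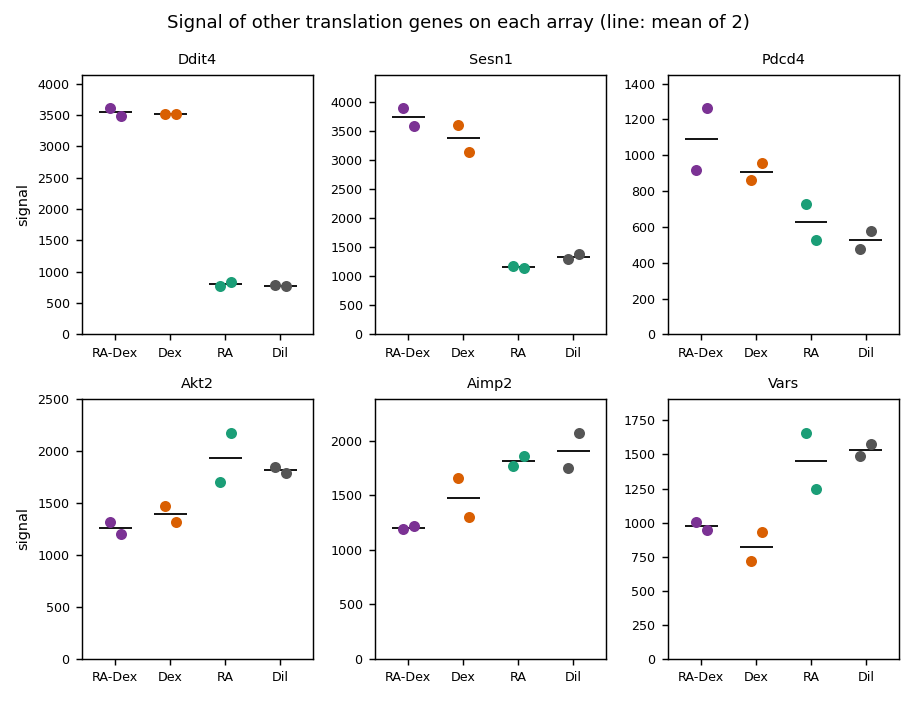
Signal (linear axis from 0, its range set for each panel) of the 6 other translation genes called with dexamethasone, 1 point per array, with groups from left to right RA-Dex, Dex, RA and Dil and a line at the mean of the 2 arrays. The dexamethasone arrays of Ddit4 lie between 3478 and 3604 and the others between 765.1 and 843.7.

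Of 21 aminoacyl-tRNA synthetases and their scaffold proteins, all tested, 0 rose and 2 fell with dexamethasone, a share near the 7.83% called among all tested probe sets, with a median of -0.13 against -0.03 over all. Vars, which charges tRNA with valine, had 1006 and 944.4 in RA-Dex, 718.8 and 927.2 in Dex, 1659 and 1246 in RA, and 1491 and 1574 in Dil. All 4 dexamethasone arrays lay below the others (-0.73 ± 0.145, adjusted p = 0.0102), and the call was lost under 3 of 16 alternatives, among them without Dex array a (adjusted p = 0.0523) and without RA-Dex array b (adjusted p = 0.0532). The synthetase scaffold Aimp2 was lower by a log2 value of -0.48 ± 0.128 (adjusted p = 0.0431), which was lost under 12 of 16. Summed signals of immune cell markers were also lower on the dexamethasone arrays. Over 7 measured lymphocyte genes, 4 above the filter, the summed signal was 3143 and 2715 in RA-Dex, 2156 and 2203 in Dex, 3927 and 4583 in RA, and 4210 and 4707 in Dil. Over 7 macrophage genes, 5 above the filter, it was 11570 and 12800 in RA-Dex, 12900 and 12960 in Dex, 15830 and 16690 in RA, and 16330 and 14700 in Dil. In neither sum did the dexamethasone arrays overlap the others, but single genes differed. Of the macrophage genes Lyz2, the largest part of that sum, Cd68 and Mpeg1 overlapped, whereas Csf1r and Tyrobp did not. Of the lymphocyte genes Cd79a overlapped, whereas Cd79b, Ighm and Ms4a1 did not. The T cell genes Cd3d, Cd3e and Cd3g were below the filter. The summed epithelial and endothelial lists overlapped, but some single markers in them did not: the type I cell gene Hopx lay between 18500 and 20240 on the dexamethasone arrays and between 9595 and 15350 on the others. Pdpn, also of type I cells, lay between 1794 and 3290 with dexamethasone and between 704.3 and 1477 without. Ager, likewise a type I cell gene, overlapped, with 24260 to 29090 on the dexamethasone arrays and 22070 to 29070 on the others. The rest of the epithelial list overlapped too. The endothelial receptor gene Kdr lay between 806.7 and 1369 with dexamethasone and between 1605 and 2178 without. Tek was also lower without overlap (832.4 to 918.6 against 968.7 to 1181), whereas Cdh5, Flt1 and Pecam1 overlapped. The part of these cell types in the called genes was not tested.

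No call was made in limma among 8 tested genes of the integrated stress response, 11 of poly(A) binding, termination and recycling, 4 mitochondrial translation factors and 1 gene that modifies elongation factors. At an unadjusted p under 0.05 these lists had 4, 1, 1 and 0 genes with dexamethasone, beside 21.3% of all tested probe sets. With retinoic acid averaged none of the lists held a called gene. Signals are of mRNA, and neither protein amounts nor phosphorylation, through which several of these factors are controlled, were measured.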

How the data were processed

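Whole-lung RNA of newborn mice was measured on 8 Affymetrix arrays. The deposited values were an intensity per probe set on a linear scale, and the 2% trimmed mean of every array was 800.4, so no further normalization was applied. Which software made them is not given in the sources used. Probe sets were named from the 2016 platform annotation, and a probe set with several symbols was left out of the factors. For the other translation genes and the cell type markers, the probe set with the highest mean log2 signal stood for its gene. Any further probe sets of those genes are not given.

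Of 12488 probe sets 66 were controls. Signals under the pooled 25th percentile (85.3) were set to it, log2 was taken, and the 7309 probe sets (58.8%) with a mean log2 value above that of the pooled 40th percentile (200.8) were fitted with limma 3.58.1 in R 4.3.3: 1 mean per group, eBayes with an intensity trend, 4 residual and 6.69 prior degrees of freedom, two-sided, Benjamini-Hochberg over all 7309. Intervals are 95%. The number of arrays limits the precision. The fit was tested on simulated data.

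The members and gene lists were chosen with earlier results of these data known. Named were the 8 factors of smallest p in each averaged contrast, called members, a set of main factors, and called genes of the other translation lists, at most 6 a contrast. Further factors are named for their role or their unadjusted p, after their values were seen. Alternatives covered normalization, filter, floor, variance model, a block for the replicate letter and each array left out. The labels do not say whether the letters a and b pair the arrays. Correlations of b minus a between groups were -0.22 to 0.14, which cannot exclude a pairing.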

Additional observations from a re-analysis of the deposited data

How the results depend on the processing

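The count of called factor probe sets stayed at 0 under all 16 alternatives in 6 of the 7 comparisons. In Dex against Dil it became 1, the Eif4ebp2 probe set with the widest spread, with quantile normalization (log2 fold change 1.66, limma adjusted p = 0.0472), with the stricter filter at a signal of 508.5 (1.62, adjusted p = 0.0413), with the replicate block (1.62, adjusted p = 0.00996) and without Dil array b (2.25, adjusted p = 0.0142), which leaves that group 1 array. Leaving out single arrays gave counts of 0 to 1 there, and the adjusted p of this probe set lay between 0.00996 and 0.383 over the 16. The cause was not tested. The replicate block changed no other factor call. Of the values of named factors under the alternatives 2423 kept direction and side of the threshold, 4 passed it and 121 changed sign with no call on either side; 0 called values reversed. Counts over all probe sets lay between 307 and 591 with dexamethasone averaged, 2 and 23 with retinoic acid averaged, 80 and 271 in Dex against Dil, 81 and 275 in RA-Dex against RA, 0 and 16 in RA against Dil, 2 and 16 in RA-Dex against Dex, and 1 and 22 for the interaction. With no filter, where 12422 probe sets were tested, the averaged dexamethasone count was 349. Ddit4 and Sesn1 kept their calls under all 16 in the averaged contrast and in both simple dexamethasone contrasts. Pdcd4 had an adjusted p of up to 0.113, Akt2 of up to 0.142, Vars of up to 0.0783 and Aimp2 of up to 0.176 in the averaged contrast, and Vars in Dex against Dil lost its call under 9 of 16. The alternatives for these 6 genes were added after seeing the data. Signal near background limits 21 of the 66 factor probe sets.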
